A study of Mus musculus with 72 samples.

Results

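The genes of the calcium-binding proteins Calb1, Calb2, Necab1 and Necab2, together with Nos1, were followed in Pet1 neurons of the mouse dorsal raphe (DR). The 5 genes were chosen by name, and all 5 were found among the 17231 genes of the filtered 10X counts and among the 24256 genes of the counts from manually sorted cells. The study asked which kinds of Pet1 neuron the DR holds, with droplet libraries from the whole DR and full-length libraries from cells picked by hand out of DR subdomains. The 10X counts held 2350 cells with between 12320 and 134079 UMIs per cell and a median of 59646. The manual counts held 70 cells in 8 groups, each with between 756872 and 7664103 reads on genes.

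The 10X cells came from 2 runs on EGFP-sorted cells. Per the labels, one run was on Pet1::Flpe+/-; hM3Dq+/+ mice with a mean age of postnatal day 65.5, and the other, at a mean age of postnatal day 59, on mice of the genotype En1::cre+/-;Pet1::Flpe+/-;RC::FrePe+/-. In the first genotype Flpe alone, driven from Pet1 (Fev) sequences, turned on EGFP and no Cre was present. In the second, EGFP also needed En1-cre, so its cells have a history of En1 expression. Tissue of the mice of a run was pooled, and the labels tie no cell to an animal. The cell barcodes carry 2 endings, which are called barcode sets 1 and 2 here (869 and 1481 cells) because no label says which ending is which run. No barcode occurred in both sets (0 shared). The manual cells came from mice with Pet1::Flpe+/-, RC::FrePe+/- and 1 of 4 Cre drivers, so that a marked cell had a history of both recombinases. With Sert::cre+/-, cells were taken from the dorsolateral (Sert_Pet1_dlDR, 10 cells), dorsomedial (Sert_Pet1_dmDR, 9 cells), ventromedial (Sert_Pet1_vmDR, 8 cells) and caudal DR (Sert_Pet1_cDR, 6 cells), at postnatal day 63 or 90 (caudal cells all at 63). With P2ry1::cre+/-, 10 caudal cells were taken between postnatal days 62 and 74 (P2ry1_Pet1_cDR). With Npy2r::cre+/-, 10 caudal (Npy2r_Pet1_cDR) and 9 rostral cells (Npy2r_Pet1_rDR) were taken at postnatal day 77 or 87. With Crh::cre+/-, 8 rostral cells were taken at postnatal day 83 or 119 (Crh_Pet1_rDR). Each manual sample is 1 cell, and no animal is named. The 10X table and each manual group were therefore treated as 1 sample, no test between groups was made, and every interval below is a 95% interval that covers counting error only.

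EF-hand proteins hold calcium in a helix-loop-helix fold. Some, such as calmodulin, change shape on binding and switch other proteins, while others mainly buffer calcium. Calb1 (calbindin) and Calb2 (calretinin) are widely used to mark classes of neurons and are counted among the buffers. Necab1 and Necab2 encode neuronal proteins with EF hands near the N terminus. Nos1, the neuronal nitric oxide synthase, is not an EF-hand protein but is switched on by calcium-loaded calmodulin, and makes nitric oxide, which acts on guanylyl cyclase. In the DR these genes lie beside Tph2, which encodes the enzyme that starts serotonin synthesis, Gad2 and Gad1, which encode the enzymes that make GABA, and Slc17a8, which encodes a vesicular glutamate transporter.

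In the GRCm38 annotation Calb1 lies at chr4:15881264-15908064 on the plus strand and Necab1 at chr4:14952245-15149794 on the minus strand of the same chromosome. Calb2 lies at chr8:110137502-110168210 on the minus strand and Necab2 at chr8:119446719-119472640 on the plus strand, also on a shared chromosome. Nos1 lies at chr5:117781032-117958840 on the plus strand. Calb1 and Calb2 are paralogs, as are Necab1 and Necab2, so their coding sequences were compared. Coding bases are 786 of the 4222 bases of the Calb1 transcript and 816 of 1431 for Calb2, 1059 of 4922 for Necab1 and 1170 of 1976 for Necab2. The untranslated ends, where most reads of 3′ droplet libraries fall, were not compared, so the comparison bears on the full-length manual libraries more than on the 10X counts. The coding sequences of Calb1 and Calb2 were identical at 524 of 770 aligned bases (68.1%), and their longest exact shared run was 12 bases. Those of Necab1 and Necab2 were identical at 650 of 1016 aligned bases (64.0%), with a longest shared run of 14 bases. The coding stretches around these runs are shown 5′ to 3′ with the shared run in capitals. The stretches of Calb1 and Calb2 lie in exons 3 to 4 and span chr4:15885653-15895503 and chr8:110152648-110154661, introns included. Those of Necab1 and Necab2 lie in exons 1 to 3 and span chr4:15111266-15148829 and chr8:119447253-119452118.
Calb1: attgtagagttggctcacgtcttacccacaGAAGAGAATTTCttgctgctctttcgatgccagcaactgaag
Calb2: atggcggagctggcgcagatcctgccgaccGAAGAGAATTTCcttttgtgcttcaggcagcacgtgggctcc
Necab1: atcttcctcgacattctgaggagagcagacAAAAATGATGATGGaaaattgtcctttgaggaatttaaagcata
Necab2: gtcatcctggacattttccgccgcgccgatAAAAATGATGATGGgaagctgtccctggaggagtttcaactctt
The lower-case bases on either side of each run differ between the paralogs at many places. Necab1 shares 410 exon bases with the antisense gene Gm11837, and Nos1 shares 268 exon bases with the antisense gene Gm26995. The manual library kit does not mark strand, so reads from these overlaps cannot be assigned to either strand in the manual counts.

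Detection differed widely between the 5 genes in the 10X cells. Necab2 had a UMI in 97.5% of cells, Calb1 in 77.9%, Calb2 in 32.4%, Nos1 in 19.1% and Necab1 in 16.3%. After each cell was thinned to 20000 UMIs, the shares were 94.6%, 59.4%, 22.0%, 12.6% and 11.4% in the same order of genes. In the 70 manual cells Necab2 had a read in 70 cells, Calb1 in 58, Calb2 in 29, Nos1 in 15 and Necab1 in 12, which is the same order of genes. The 3 rarer genes were not uniformly low where they were found. Calb2 reached 119 UMIs in a single cell, Nos1 reached 62 and Necab1 reached 35, while 35.8%, 36.2% and 34.9% of their positive cells held a single UMI. Levels over all cells of the 2 barcode sets were close for Nos1, at 23.3 CPM in set 1 (UMIs of the gene in 1000000 UMIs of the same cells) and 24.0 CPM in set 2. They were 86.3 and 107 CPM for Calb1, 52.8 and 73.1 CPM for Calb2, 10.7 and 12.5 CPM for Necab1 and 361 and 320 CPM for Necab2.

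The cells were grouped into 14 clusters by all variable genes other than these 5, and each cluster is referred to by a number and by the marker genes that gave it that number. The clusters have no replicate, so the levels below are a description, with 2 neighbours in the order called apart where their intervals do not overlap. All 5 serotonin neuron genes checked (Fev, Tph2, Slc6a4, Slc18a2 and Ddc) were found, and their summed level was lowest in cluster 13 (2408 CPM) and highest in cluster 4 (10372 CPM).

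Calb1 was highest in cluster 14 (Gpr101, Ecel1, Cxcl14), at 371 CPM with an interval of 352 to 392 and a UMI in 86.3% of its 102 cells. Next came cluster 6 (Pou3f2, Bcl11a, Gad1, Emilin2) at 252 CPM and cluster 9 (Maf, Crh, Pcp4, Wnt5a) at 249 CPM, whose intervals overlapped. The lead of cluster 14 rests on its being split off. With components 1 to 50 its cells joined those of cluster 7, and the highest level was then 259 CPM, in a cluster with 160 of the 165 cells of cluster 6. At resolution 0.7 they joined those of cluster 13, and the highest was 244 CPM, in a cluster with 153 of the 156 cells of cluster 9. Clusters 7, 13, 5 and 1 followed between 111 and 143 CPM, each overlapping with the next. In cluster 6 barcode sets 1 and 2 had 175 and 276 CPM. The lowest levels were 15.7 CPM in cluster 12 (Met, Zeb2, Tacr3, S1pr3) and 11.0 CPM in cluster 8 (Rorb, Nr2f2, Wnt4, Cmbl), where 33.0% and 40.7% of cells had a UMI. The level in cluster 14 was thus 33.7 times that in cluster 8, although Calb1 had a UMI in 33.0% or more of the cells of each cluster. The 3 clusters with the highest levels held 45.1% of its UMIs and 18.0% of the cells.

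Calb2 was more concentrated. It was also highest in cluster 14, at 574 CPM with an interval of 550 to 599 and a UMI in 92.2% of cells. Joined with cluster 7 under components 1 to 50 these cells still led, at 401 CPM, but joined with cluster 13 at resolution 0.7 they were at 281 CPM, behind 304 CPM in the cluster that held cluster 7. Cluster 7 (Tmeff2, Adcy2, Nrp2, Foxp1) at 301 CPM and cluster 1 (Npas1, Gabre, Gabrq, Sema5a) at 293 CPM were next and overlapped over all cells. Their order differed between the barcode sets, since cluster 7 had 302 CPM in set 1 and 301 CPM in set 2, and cluster 1 had 190 and 352 CPM. Clusters 8, 9 and 10 followed at 114, 68.9 and 58.9 CPM, all apart from each other. In clusters 2, 3 and 4, where Gad2 was at 125, 227 and 517 CPM, the level of Calb2 was 2.07, 2.97 and 1.10 CPM, and a UMI was seen in 7.03%, 12.4% and 6.78% of cells. Within clusters the cells were uneven. In cluster 1 the median cell had 62.3 CPM and the 90th percentile cell 866 CPM, and in cluster 8 these were 14.8 and 394 CPM. The sets also differed in the middle of this order, with 26.1 against 170 CPM in cluster 8, 27.2 against 86.0 CPM in cluster 9 and 58.5 against 12.3 CPM in cluster 11. In cluster 14 they were 510 and 603 CPM.

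Necab1 was found mainly in 2 clusters. Cluster 6 had 76.7 CPM of it (interval 71.2 to 82.5) and cluster 13 (Nfib, Nppc, Bmp3, Hs3st2) had 65.0 CPM (57.7 to 73.0), with a UMI in 66.1% and 56.9% of cells. Cluster 5 (Pdyn, Ret, Col25a1, Nhsl1) followed at 23.1 CPM, cluster 9 at 17.5 CPM and cluster 14 at 12.6 CPM. The 9 other clusters lay between 0.195 and 6.62 CPM. Barcode sets 1 and 2 differed in cluster 9, with 5.80 and 22.3 CPM, and in cluster 14, with 6.13 and 15.6 CPM. Clusters 6 and 13 differ from each other in the reference genes. Cluster 6 had 169 CPM of Gad2 and 45.8 CPM of Slc17a8, whereas cluster 13 had 62.7 CPM of Gad2, 426 CPM of Slc17a8 and the lowest Tph2 of the 14, at 649 CPM.

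Necab2 was the most evenly spread, with 5.49 times between the highest and the lowest cluster. Clusters 6 and 5 led with 680 and 671 CPM and overlapping intervals, and every cell of both had a UMI. In barcode set 1 cluster 5 was the higher of them, at 736 against 723 CPM. Cluster 12 followed at 421 CPM and cluster 1 at 355 CPM. Cluster 2 was at 314 CPM, and clusters 3, 9, 11, 7, 10, 8 and 4 lay between 237 and 284 CPM in a run of overlapping neighbours. Clusters 14 and 13 were lowest at 131 and 124 CPM, with a UMI in 87.3% and 74.3% of cells. These 2 clusters also had the lowest median depth, at 34715 and 28723 UMIs per cell, and at 20000 UMIs per cell the shares were 77.3% and 70.9% against 85.4% or more in the other clusters. In cluster 9 the barcode sets differed, with 172 CPM in set 1 and 321 CPM in set 2.

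Nos1 was highest in cluster 9, at 141 CPM with an interval of 133 to 148 and a UMI in 73.7% of its 156 cells. Cluster 5 at 83.5 CPM and cluster 11 (Rspo3, Foxa1, Adgrl2, Proser2) at 70.8 CPM followed, apart from each other and from cluster 9. These 3 clusters held 87.3% of the Nos1 UMIs and 19.3% of the cells. Cluster 10 (Hs3st5, Hcrtr2, Cbln2, Cited1) had 13.2 CPM (19.7 and 10.5 CPM in barcode sets 1 and 2), and the remaining clusters 7.67 CPM or less. A single UMI was counted in cluster 12 and another in cluster 14, which is 0.917% and 0.980% of their cells. The median depth was 45568 UMIs in cluster 12 against 62397 in cluster 9, and at 20000 UMIs per cell the shares were 0.943% and 68.2%. In clusters 2 and 3 a UMI was seen in 7.47% and 6.51% of cells, with 40 UMIs in 34 cells and 20 UMIs in 20 cells. The part of stray RNA in these low counts was not tested. Even in cluster 11 the gene was found in a minority, with a UMI in 43.5% of cells, a median of 0 and a 90th percentile cell at 276 CPM. In clusters 5 and 11 the barcode sets stood in opposite orders, with 116 CPM in set 1 and 60.7 CPM in set 2 for cluster 5, and 35.7 and 79.6 CPM for cluster 11.

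**Figure D1:**
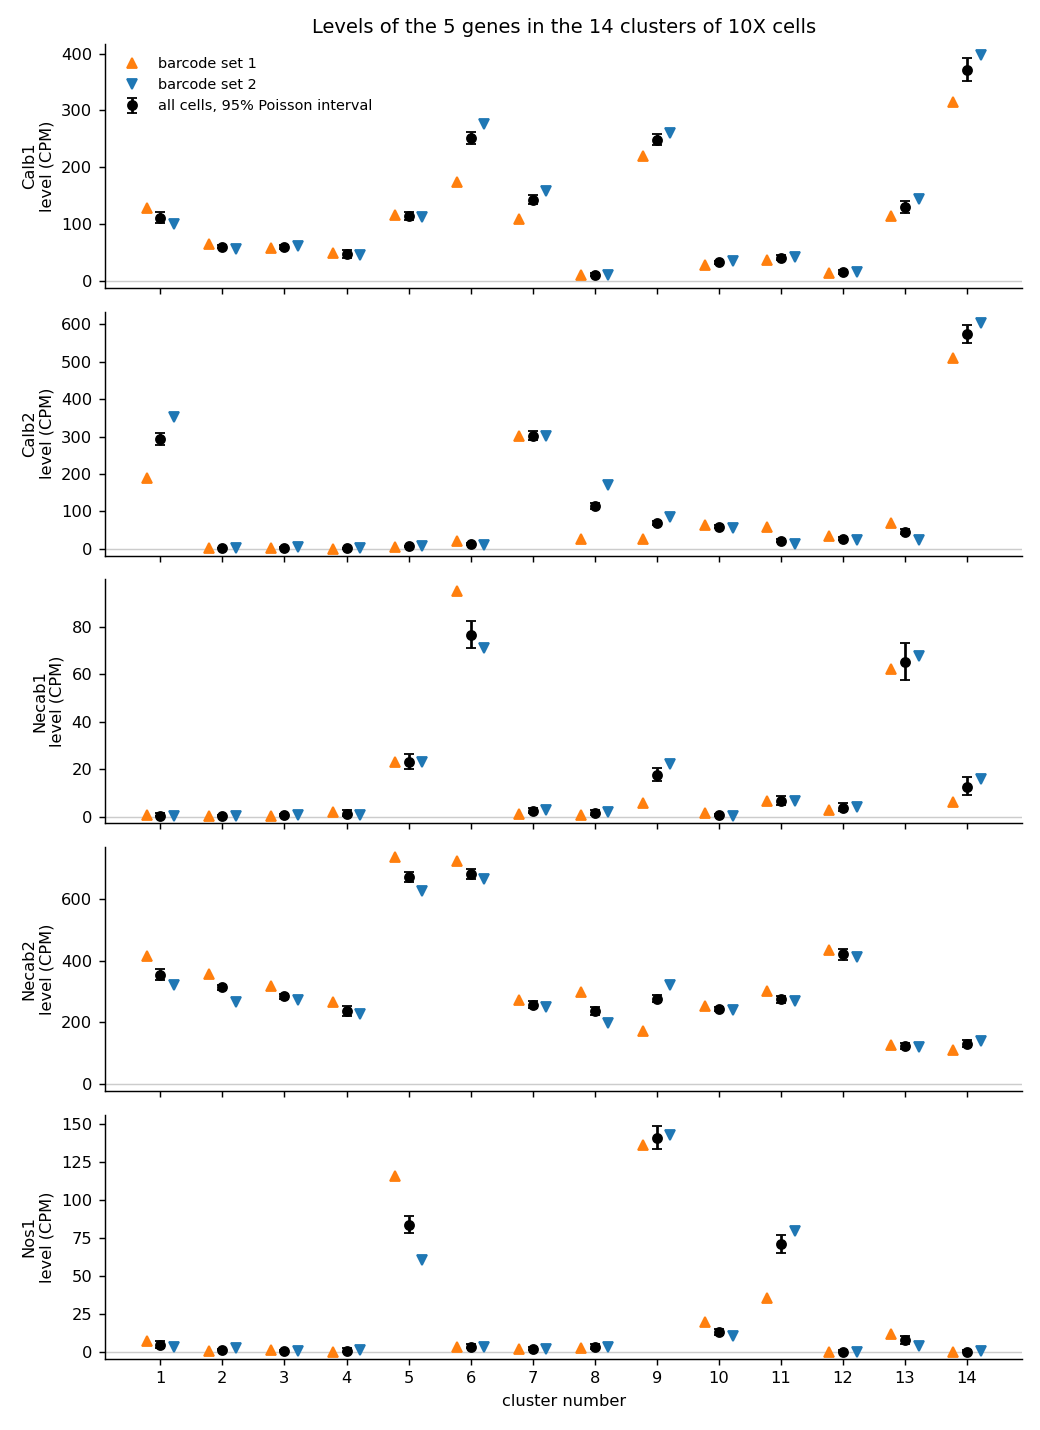
Level of each gene (CPM, linear axis from 0) in the 14 clusters of 10X cells, with black points for all cells and their 95% Poisson intervals, and triangles for barcode sets 1 and 2 alone. Calb1 and Calb2 were highest in cluster 14 (371 and 574 CPM) where it was split off, Necab1 was highest in clusters 6 and 13 (76.7 and 65.0 CPM, overlapping) and Necab2 in clusters 6 and 5 (680 and 671 CPM, overlapping), and Nos1 was highest in cluster 9 (141 CPM).

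To relate the 5 genes to the GABA and glutamate genes, cells were classed by at least 3 UMIs of Gad2, of Slc17a8, of both or of neither. This gave 879 Gad2-only cells, 873 Slc17a8-only cells, 279 cells with both and 319 with neither. The classes used none of the 5 genes. They follow the clusters closely, since 93.9% of Gad2-only cells lay in clusters 2 to 6 and 96.1% of Slc17a8-only cells in clusters 7 to 14, so class and cluster cannot be told apart for most cells. Of all cells, 340 had 2 or 3 UMIs of either gene and so lay at the limit.

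Calb2 and Nos1 were higher in Slc17a8-only than in Gad2-only cells, whereas Necab2 was lower, and Calb1 and Necab1 had no firm direction. Calb2 had 108 CPM in Slc17a8-only and 13.2 CPM in Gad2-only cells, a log2 ratio of 3.04 with an interval of 2.93 to 3.16, and a UMI in 47.1% and 16.8% of cells. The ratio was 4.18 in barcode set 1 and 2.74 in set 2, where Gad2-only cells had 5.25 and 17.4 CPM, and 2.10 when cells were thinned to 20000 UMIs. Nos1 had 29.5 and 13.4 CPM, a log2 ratio of 1.14 (1.01 to 1.28), and a UMI in 23.7% and 14.0% of cells. These 2 of the 5 genes were past 2-fold, both toward Slc17a8-only cells. The call of Nos1 rests on barcode set 2, where its log2 ratio was 1.44, since in set 1 alone it was 0.68 (0.47 to 0.88), under 2-fold. Among the 12509 genes with at least 100 UMIs over the 2 classes, 6.58% were past 2-fold in either direction, 3.64% with the higher level in Slc17a8-only cells and 2.94% with the lower. The median log2 ratio of those genes was 0.02. Necab2 had 240 CPM in Slc17a8-only and 397 CPM in Gad2-only cells, a log2 ratio of -0.73 (-0.76 to -0.69), and fell short of 2-fold. Calb1 had 90.6 and 96.0 CPM (log2 ratio -0.08) and Necab1 9.19 and 12.0 CPM (log2 ratio -0.38), and at a limit of 1 UMI for the classes these ratios turned to 0.17 and 0.24. Calb1 differed in how it was spread, with a UMI in 64.1% of Slc17a8-only and 89.5% of Gad2-only cells at nearly the same level.

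Cells with both Gad2 and Slc17a8 had the highest levels of Nos1 and Necab1 of the 4 classes. Nos1 was at 48.7 CPM (interval 45.4 to 52.1) and Necab1 at 21.9 CPM (19.8 to 24.2) in these cells, against at most 29.5 and 12.0 CPM in the other classes. The size of the difference in Nos1 rests on barcode set 2, with 55.9 CPM in cells with both and 30.3 CPM in Slc17a8-only cells, whereas in set 1 these were 29.8 and 28.1 CPM. Necab1 in cells with both was at 27.9 and 19.6 CPM in sets 1 and 2, above the other classes in each. This class held 10 of the 14 cells that a doublet caller marked. Without those 10 cells, Nos1 was at 50.7 CPM and Necab1 at 22.7 CPM in it. In cells with neither gene, Calb2 was at 147 CPM over all cells and Calb1 at 114 CPM. Calb2 was the highest of the 4 classes there in barcode set 2 only, at 203 CPM, while in set 1 it was at 84.7 CPM, below the 94.8 CPM of Slc17a8-only cells. Clusters 1 and 14 contributed to this, with Calb2 at 342 CPM in the 55 cells of cluster 1 and at 779 CPM in the 34 cells of cluster 14 that had neither.

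Within single clusters the both class could be set beside its neighbours. For Necab2 the cells with both genes lay above the Slc17a8-only cells in clusters 9, 10, 11 and 13, with 382 against 163 CPM in cluster 9, 296 against 232 CPM in cluster 10, 316 against 244 CPM in cluster 11 and 219 against 92.1 CPM in cluster 13, and the intervals were apart in all 4. They lay below the Gad2-only cells in clusters 5 and 6, with 546 against 719 CPM and 557 against 721 CPM, and overlapped with them in cluster 3, with 296 against 284 CPM. Nos1 in cluster 9 was at 158 CPM in cells with both and at 142 CPM in Slc17a8-only cells, with overlapping intervals, and in cluster 11 at 91.0 and 58.8 CPM, apart. It was lower in cells with both in cluster 10, at 8.27 against 14.4 CPM in Slc17a8-only cells, and in cluster 6, at 1.69 against 4.06 CPM in Gad2-only cells, with overlapping intervals in each. In cluster 9, Necab1 had 30.9 CPM in the 34 cells with both and 2.56 CPM in the 97 Slc17a8-only cells, and in cluster 6 it had 95.5 CPM in cells with both and 63.9 CPM in Gad2-only cells. Elsewhere Necab1 was lower in the cells with both. In cluster 5 it had 4.88 CPM (2.23 to 9.27) in them against 30.2 CPM (26.2 to 34.7) in Gad2-only cells, and with overlapping intervals it had 52.1 against 69.7 CPM in cluster 13 and 3.88 against 8.20 CPM in cluster 11, each beside Slc17a8-only cells. In clusters 3 and 10 the cells with both held 1 UMI of Necab1 each.

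Read the other way, from cells with at least 3 UMIs of a gene, Calb2 and Nos1 again went with Slc17a8. Gad2 was more frequent in Calb1 and Necab1 cells than in all cells, though these genes had no firm direction between the classes. Of 419 such Calb2 cells, 69.7% (interval 65.0 to 74.1%) had at least 3 UMIs of Slc17a8 and 19.1% of Gad2, against 49.0% and 49.3% of all cells. Of 234 Nos1 cells, 74.8% (68.7 to 80.2%) had Slc17a8, 43.2% had Gad2 and 23.5% had both, against 11.9% of all cells with both. Of 189 Necab1 cells, 23.8% had both, 63.0% Gad2 and 54.5% Slc17a8. Of 1259 Calb1 cells, 55.6% had Gad2 and 42.7% Slc17a8, whereas of the 519 cells without a Calb1 UMI 71.7% had Slc17a8. The 58 cells without a Necab2 UMI, with a median of 27466 UMIs per cell, had Slc17a8 in 94.8%.

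For Tph2, 131 cells under 500 CPM were compared with the 2219 others, a limit that was chosen with these data already seen. Necab1 was higher in the low-Tph2 cells and Calb1, Necab2 and Nos1 were lower, all past 2-fold at this limit. For Necab1 and Necab2 the 2-fold difference also held at limits of 200 and 1000 CPM and in each barcode set. Necab1 had 45.8 CPM in low-Tph2 and 10.9 CPM in other cells, a log2 ratio of 2.07 (1.84 to 2.30). Necab2 had 80.9 and 342 CPM, a log2 ratio of -2.08 (-2.25 to -1.91). Calb1 had 29.0 and 102 CPM, a log2 ratio of -1.81 (-2.10 to -1.54), which was -0.039 at a limit of 1000 CPM. Nos1 had 10.4 and 24.1 CPM, a log2 ratio of -1.22 (-1.71 to -0.76) that rests on 39 UMIs in the low-Tph2 cells. It was under 2-fold at limits of 200 CPM (-0.86) and 1000 CPM (-0.89) and in barcode set 1 alone (-0.79), and in set 2 it was -1.70. Calb2 had 103 and 64.9 CPM, a log2 ratio of 0.67 that was within 2-fold, and at a limit of 1000 CPM it was 1.20. At the limit of 500 CPM 4 of the 5 genes were thus past 2-fold, 1 with the higher and 3 with the lower level in low-Tph2 cells. Over the 12901 genes tested 15.5% were, 9.32% with the higher and 6.22% with the lower level, around a median log2 ratio of 0.18.

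The low-Tph2 cells stood apart in other ways. Of the 131, 108 lay in cluster 13 and 12 in cluster 14. Their median depth was 27329 UMIs. All 5 serotonin neuron genes were lower in them, with a summed level of 1329 against 9068 CPM. For Tph2, at 150 against 2916 CPM within these sums, the limit itself fixes this. Of the others, Fev had 182 against 340 CPM, Slc6a4 240 against 2283, Slc18a2 399 against 2410 and Ddc 358 against 1119 CPM. Fev had a UMI in all 131 cells, which the filter of the authors against cells low in Fev fixes in part. Of the glial genes, the myelin gene Mbp was higher, at 50.3 CPM against 21.2 CPM, and Gfap was at 0 UMIs. Of the 4 genes of other neuron types that were found, 3 were higher, with summed levels of 8.25 and 0.880 CPM. These levels rest on few cells, with 24 UMIs of Slc32a1 in 3.05% of the 131 cells. Slc17a6 had 4 UMIs and Th 3 UMIs, each in 0.763% of these cells, and Th had a UMI in 1.44% of the others. Of the 3 vessel, blood and microglial genes, Cldn5 and Cx3cr1 were at 0 UMIs. The part of glial RNA or of depth in the levels above was not tested. Within cluster 13, Calb1 and Necab2 were still lower in the 108 low-Tph2 cells than in the 36 others. Calb1 had 28.5 and 330 CPM and Necab2 57.8 and 254 CPM. Necab1 went the opposite way to the comparison over all cells, at 56.1 CPM in the low-Tph2 cells and 82.6 CPM in the others of that cluster, a log2 ratio of -0.56 (-0.90 to -0.21). So did Nos1, at 10.5 and 2.02 CPM, which are 31 and 3 UMIs. Calb2 was higher in the low-Tph2 cells of cluster 13, at 53.7 against 30.2 CPM, a log2 ratio of 0.83 (0.34 to 1.34). Within cluster 14 the 12 low-Tph2 cells had 25.2 CPM of Calb1, 239 CPM of Calb2 and 34.6 CPM of Necab2. The 90 others there had 405, 606 and 140 CPM. Necab1 had 0 UMIs in those 12 cells and 46 UMIs (13.8 CPM) in the 90 others, so it was not higher in low-Tph2 cells within either cluster.

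The 2219 cells from 500 CPM of Tph2 upward were split into 4 bins of rising Tph2. Calb2 was lower in each further bin, at 130, 58.2, 49.1 and 38.5 CPM, all apart. Necab1 was at 18.2, 10.2, 9.55 and 7.43 CPM, with overlapping intervals in the middle bins. Calb1 was at 135, 98.3, 97.4 and 84.9 CPM, again with an overlap in the middle. Necab2 moved little, from 370 CPM in the lowest to 312 CPM in the highest bin. Nos1 had no steady order, at 19.4, 25.4, 19.5 and 31.0 CPM. The median depth rose over the bins from 47817 to 68602 UMIs per cell, and its part was not tested.

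**Figure D2:**
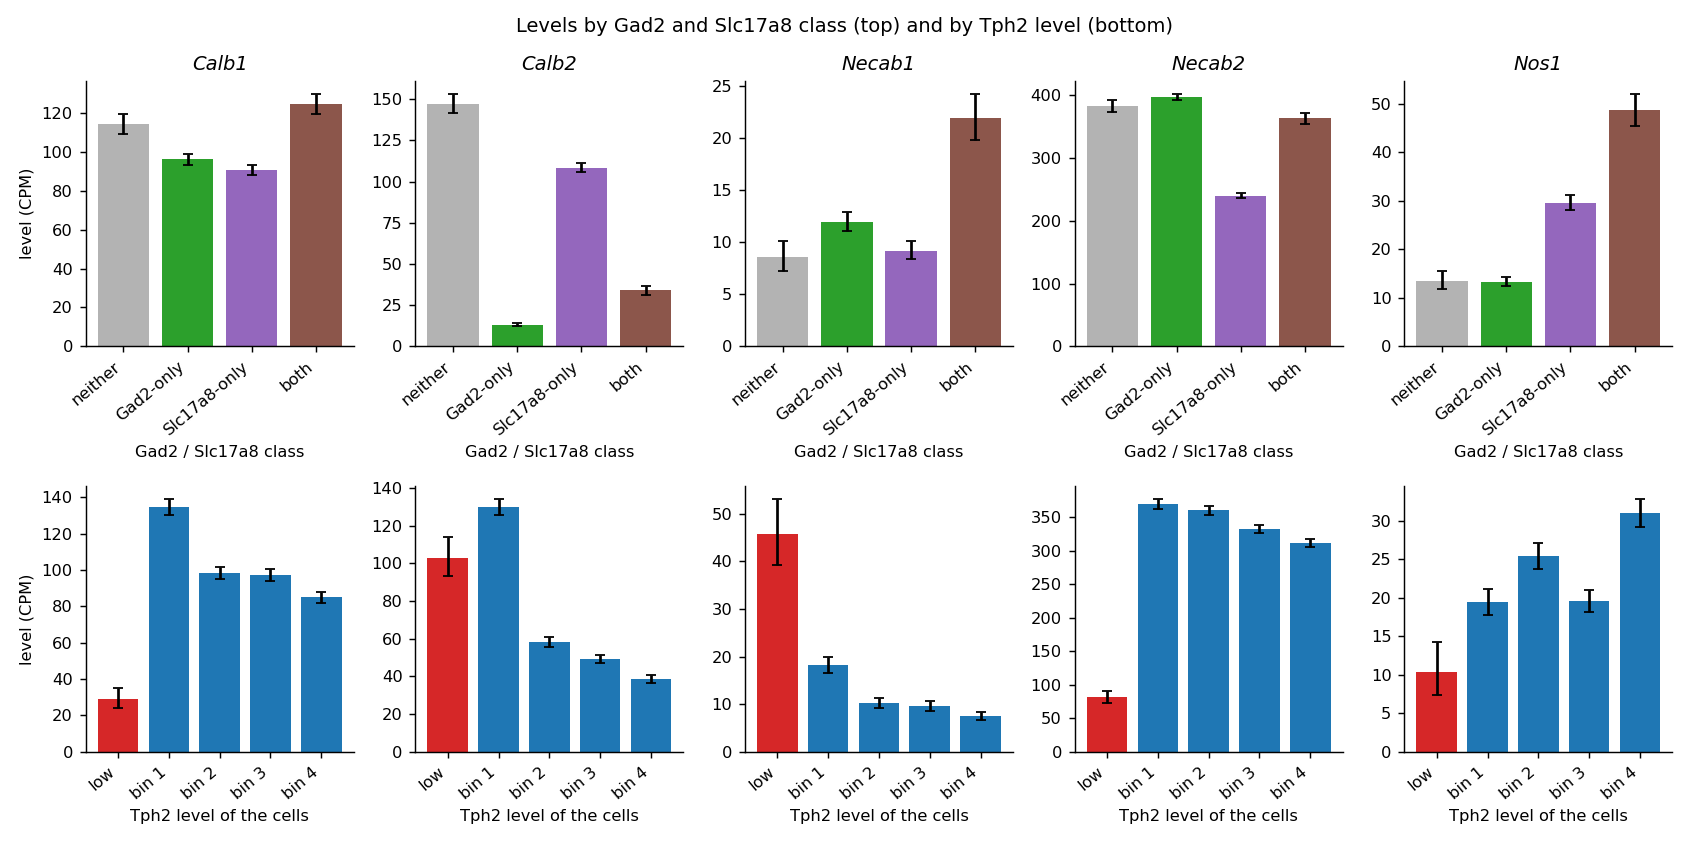
Levels (CPM, bars from 0 with 95% Poisson intervals) by Gad2 and Slc17a8 class in the top row and by Tph2 level in the bottom row, where low is the 131 cells under 500 CPM and bins 1 to 4 split the other cells by rising Tph2. Calb2 was 13.2 CPM in Gad2-only and 108 CPM in Slc17a8-only cells, Nos1 and Necab1 were highest in cells with both, and Necab1 was highest and Necab2 lowest in the low-Tph2 cells.

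Joint detection was counted for the 10 pairs of genes as cells that held both, against the number expected from the share of cells with each. At 1 UMI the pairs lay near the expected number. The highest ratio was 1.35 (1.16 to 1.56) for Calb2 and Necab1, with 168 cells against 125 expected. The 9 other pairs lay between 0.977 and 1.14 with intervals that held 1. A gene found in most cells, such as Calb1 or Necab2, leaves little room for a ratio above 1, so shares were also read. At 1 UMI Calb2 was in 34.2% (32.1 to 36.5%) of cells with Calb1 and 26.0% (22.3 to 30.0%) of cells without it. Necab1 was in 17.5% (15.8 to 19.4%) and 12.1% (9.46 to 15.3%), and Necab2 in 98.5% (97.9 to 99.0%) and 94.0% (91.6 to 95.9%). Nos1 was in 19.8% (18.0 to 21.7%) and 17.0% (13.8 to 20.5%), which overlapped. At 3 UMIs the pairs separated more. Calb1 and Necab1 were both found in 154 cells against 101 expected (ratio 1.52, interval 1.30 to 1.77), Calb1 and Calb2 in 311 against 224 (1.39, 1.24 to 1.54), and Calb1 and Nos1 in 159 against 125 (1.27, 1.08 to 1.47). Calb2 and Necab1 were both found in 48 against 33.7 (1.42, 1.05 to 1.88). Calb2 and Nos1 were both found in 30 cells against 41.7 expected, a ratio of 0.719 (0.486 to 1.02) whose interval held 1. All 4 pairs with Necab2, which 2159 of the 2350 cells held, lay between 0.940 and 1.03 with intervals that held 1. As shares, Necab2 was in 86.4% (82.7 to 89.5%) of the Calb2 cells and in 93.1% (91.8 to 94.2%) of the cells without Calb2 at 3 UMIs. It was in 94.9% (93.6 to 96.1%) of the Calb1 cells and in 88.4% (86.3 to 90.2%) of the cells without Calb1 at that limit.

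Because clusters differ in their levels, the expected number at 3 UMIs was also summed cluster by cluster. The ratio then was 1.02 for Calb1 and Nos1, 1.14 for Calb1 and Calb2 and 1.18 for Calb1 and Necab1. Calb2 and Necab1 went from 1.42 to 1.90, with 17 of their 48 shared cells in cluster 9, and Calb2 and Nos1 stayed at 0.716. Necab1 and Nos1 went from 1.17 (0.734 to 1.77) over all cells to 0.769. Their clusters went opposite ways, with 6 shared cells against 15.5 expected in cluster 9 (0.386, 0.143 to 0.822), and 14 of the 22 shared cells in cluster 5, against 8.23 expected there (1.70, 0.945 to 2.77). Where the shared cells lay differed by pair. Of the 311 cells with Calb1 and Calb2, 89 were in cluster 7, of the 154 with Calb1 and Necab1, 76 were in cluster 6, and of the 159 with Calb1 and Nos1, 81 were in cluster 9. In barcode sets 1 and 2 the ratios at 3 UMIs were 1.41 and 1.37 for Calb1 and Calb2 and 1.42 and 1.56 for Calb1 and Necab1. They were 0.662 and 0.739 for Calb2 and Nos1. For Calb1 and Nos1 they were 1.43 (1.11 to 1.81) and 1.18 (0.961 to 1.43), and thinned, at 1 UMI, the ratio was 1.14 (0.990 to 1.30). For Calb2 and Necab1 the ratios in the sets were 1.18 (0.566 to 2.16, from 10 shared cells) and 1.47 (1.05 to 2.01).

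**Figure D3:**
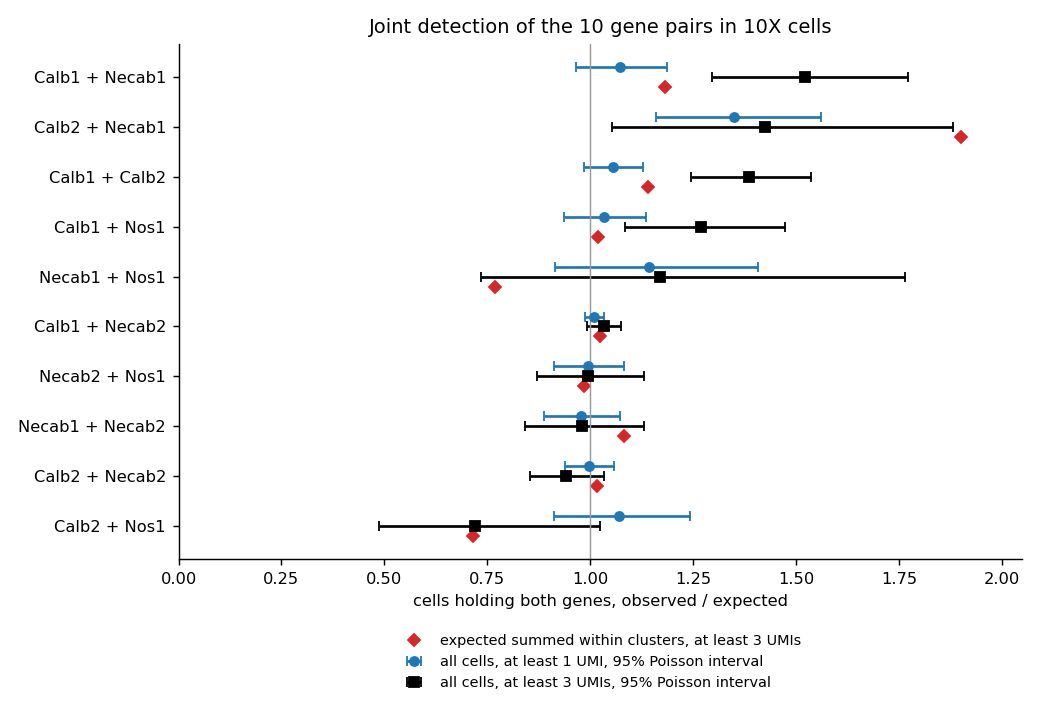
Cells holding both genes of a pair as a ratio of the number expected from the share of each gene (x axis, vertical line at 1). Circles are at 1 UMI and squares at 3 UMIs, and diamonds have the expected number at 3 UMIs summed within clusters. The 95% intervals, called Poisson in the legend, are Clopper-Pearson intervals of the share of cells with both, over a fixed expected number. Calb1 with Necab1 had the highest ratio over all cells at 3 UMIs (1.52), and Calb2 with Nos1 the lowest (0.719).

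Counting the genes that a cell held at 3 UMIs, 78 cells had none of the 5, 869 had 1, 902 had 2, 425 had 3, 68 had 4 and 8 had all 5. Combinations are given by all of the 5 genes that a cell held. The most common were Necab2 alone (803 cells), Calb1 with Necab2 (698 cells), and Calb1, Calb2 and Necab2 (218 cells, of which 86 were in cluster 7). Calb1, Necab2 and Nos1 were found in 108 cells, 54 of them in cluster 9, while Necab2 and Nos1 alone were found in 63 cells, 32 of them in cluster 11. Calb1 and Calb2 alone were found in 31 cells, of which 28 were in cluster 14. Of the 78 cells with none, 56 were in cluster 13.

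Across the 2350 cells, which share 2 barcode sets and differ in depth, log-normalised levels gave modest correlations, stated as a description. The strongest between a pair of the 5 genes was Pearson r = 0.34 for Calb1 and Calb2, followed by 0.31 for Calb1 and Necab1. With the reference genes, r was -0.42 for Necab2 and Slc17a8, 0.35 for Necab2 and Tph2, -0.26 for Calb2 and Gad2, -0.23 for Necab1 and Tph2, and 0.22 for Nos1 and Slc17a8. The rank correlation of Necab2 and Tph2 was 0.09, much below its r. The sign of each of these r was the same in barcode sets 1 and 2.

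Among 12520 genes with a UMI in at least 5% of cells, the genes whose levels followed each of the 5 most closely were ranked by r over these cells. Nos1 had the closest match, Maf, a transcription factor, with r = 0.65 (0.57 and 0.70 in barcode sets 1 and 2). Cacng5, an auxiliary subunit of glutamate receptors, the intermediate filament gene Synm and the receptor partner Ramp3 were also among its 5 closest, with r between 0.48 and 0.51. For Calb2 the closest were Tmeff2 (0.54), the transcription factors Foxp1 (0.45) and Pou3f1 (0.42), the orphan receptor Gpr101 (0.41) and Fam46a (0.40). For Calb1 they were Rprm and Rgs10 (0.51 each), Pcdh11x (0.50), Rasgrp1 (0.48) and Gfra1 (0.46), of which Rgs10 encodes a regulator of G-protein signalling, Pcdh11x a protocadherin and Gfra1 a co-receptor for glial cell line-derived growth factors. For Necab1 they were the transcription factor Bcl11a (0.49), RP23-291B1.2 (0.48), the neuregulin receptor Erbb4 (0.46), the receptor tyrosine kinase Ret (0.45) and Zfp536 (0.44). For Necab2 they were the adhesion gene Amigo2 (0.53), Sorcs1 (0.51), Ret (0.50), the serotonin transporter Slc6a4 (0.47) and the phosphodiesterase Pde2a (0.45). Several of these, namely Maf, Tmeff2, Foxp1, Gpr101, Bcl11a and Ret, are also among the genes that gave the clusters their numbers.

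Other genes of calcium binding and of the nitric oxide pathway were read in the same class comparison. Of 31 EF-hand genes with enough UMIs, 5 were past 2-fold toward Slc17a8-only cells and 4 toward Gad2-only cells, and 22 were within it, with a median log2 ratio of -0.0015. Over all genes tested, 3.64% and 2.94% were past 2-fold in these directions and the median was 0.02. The highest were S100b (47.1 against 3.59 CPM, log2 ratio 3.71), the potassium channel partner Kcnip1 (2.52) and the neuronal calcium sensor Hpca (1.72). The lowest were S100a1 (-2.16), S100a16 (-1.80) and Vsnl1, a visinin-like sensor, at 364 against 983 CPM (-1.43). Of 26 genes of the nitric oxide pathway, 1 was past 2-fold toward Slc17a8-only and 3 toward Gad2-only cells, with a median log2 ratio of -0.25 beside the same 3.64%, 2.94% and 0.02. Pde9a (1.29), Spr (0.50) and Ddah1 (0.42) were the highest and Pde5a (-4.34), Gucy1a3 (-1.51) and Pde1a (-1.23) the lowest. Gucy1a3, a subunit of the guanylyl cyclase that senses nitric oxide, thus had 83.3 CPM in Slc17a8-only and 237 CPM in Gad2-only cells, the opposite order to Nos1. Between low-Tph2 and other cells, 8 of the 31 EF-hand genes were past 2-fold higher and 5 lower, and 2 of the 26 nitric oxide genes higher and 8 lower. Over all genes tested 9.32% were higher and 6.22% lower. The median log2 ratio was 0.058 for the EF-hand genes and -0.10 for the nitric oxide genes, beside 0.18 over all genes.

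In the manually sorted cells the genes were read per cell, as CPM of reads on genes. The driver genes varied at the time of sorting. P2ry1 had reads in 8 of 10 P2ry1_Pet1_cDR cells, Npy2r in 7 of 10 Npy2r_Pet1_cDR and 6 of 9 Npy2r_Pet1_rDR cells, and Crh in 5 of 8 Crh_Pet1_rDR cells, while Tph2 and Fev were found in all 70. The Npy2r_Pet1_cDR and Npy2r_Pet1_rDR groups share their driver and both ages (postnatal days 77 and 87), as do the dorsolateral, dorsomedial and ventromedial Sert groups (days 63 and 90), so that within these sets the subdomain differs. Read depth differed too, from 756872 to 7664103 reads per cell in Npy2r_Pet1_rDR and from 3574624 to 6490477 in Npy2r_Pet1_cDR. Most other pairs of groups differ in more than 1 of driver, subdomain and age. The glial genes also differed, with Mbp in 5 of 6 Sert_Pet1_cDR cells (up to 261 CPM) and Gfap in 4 of them (up to 200 CPM), and neither in any P2ry1_Pet1_cDR cell. In the 6 remaining groups the median of Mbp lay between 11.5 and 32.9 CPM. The part of glial RNA in the group differences was not tested.

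Calb1 had a read in all cells of Sert_Pet1_dlDR, Crh_Pet1_rDR and Sert_Pet1_vmDR, though the lowest Sert_Pet1_vmDR cell had only 1 read. In Sert_Pet1_dlDR its lowest, median and highest levels were 27.5, 256 and 442 CPM, and in Crh_Pet1_rDR they were 48.7, 132 and 707 CPM. In Npy2r_Pet1_cDR they were 0, 369 and 1113 CPM, with 9 of 10 cells between 210 and 1113 CPM. In P2ry1_Pet1_cDR they were 0, 0.0820 and 88.3 CPM, and 8 of 10 cells had fewer than 10 reads. Sert_Pet1_cDR was also low, at 0, 18.9 and 165 CPM. In the remaining groups the median was 174 CPM in Sert_Pet1_dmDR (0 to 245), 150 CPM in Sert_Pet1_vmDR (0.319 to 1391) and 82.1 CPM in Npy2r_Pet1_rDR (0 to 843). All but 1 of the P2ry1_Pet1_cDR cells thus lay below every Sert_Pet1_dlDR cell, and the group ranges overlapped through that cell. In Npy2r_Pet1_rDR the 6 cells of postnatal day 87 had a median of 491 CPM (53.7 to 843) and the 3 cells of postnatal day 77 a median of 0 (0 to 44.1). Depth differed with age in this group, at 5215246 to 5592105 reads on day 77 and 756872 to 1489171 reads in several cells of day 87. The part of depth was not tested.

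Calb2 stood out in Npy2r_Pet1_cDR, where its lowest, median and highest levels were 0, 591 and 2050 CPM, with at least 10 reads in 8 of 10 cells. The 6 cells of postnatal day 87 ranged from 21.2 to 2050 CPM with a median of 813 CPM, and the 4 cells of postnatal day 77 from 0 to 1811 CPM with a median of 15.9 CPM. In Npy2r_Pet1_rDR, of the same driver and ages, the medians were 1.02 CPM at day 87 (0 to 59.8) and 0 at day 77 (0 to 15.7), so the ranges overlapped at each age. In Sert_Pet1_cDR 5 of 6 cells had Calb2, at 13.9 to 22.9 CPM. In P2ry1_Pet1_cDR the levels were 0, 0.562 and 792 CPM, where the highest cell stood far from the next at 41.7 CPM. In the 5 groups from other subdomains the median was 0, the highest value was 59.8 CPM (Npy2r_Pet1_rDR), and Sert_Pet1_dlDR had a single read in 1 of 10 cells. The caudal groups and these groups overlapped at the low end.

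Necab1 was found in 5 of 9 Npy2r_Pet1_rDR cells, with a lowest, median and highest level of 0, 1.34 and 108 CPM. It had reads in 2 of 10 Npy2r_Pet1_cDR cells, 2 of 8 Sert_Pet1_vmDR cells and 1 cell each of Sert_Pet1_dlDR, Sert_Pet1_dmDR and Crh_Pet1_rDR, and no reads in any of the 10 P2ry1_Pet1_cDR or 6 Sert_Pet1_cDR cells. Its highest values outside Npy2r_Pet1_rDR were 50.0 CPM in Sert_Pet1_vmDR and 42.2 CPM in Npy2r_Pet1_cDR. The 5 positive cells of Npy2r_Pet1_rDR were all of postnatal day 87.

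Necab2 had at least 10 reads in every one of the 70 cells. Its median was highest in P2ry1_Pet1_cDR at 948 CPM (458 to 1722) and in Npy2r_Pet1_rDR at 867 CPM (26.5 to 1539). The other 6 medians lay between 429 CPM in Crh_Pet1_rDR and 566 CPM in Npy2r_Pet1_cDR, and the ranges of all 8 groups overlapped. In the same caudal subdomain, Sert_Pet1_cDR ranged from 327 to 692 CPM.

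Nos1 had at least 10 reads in 12 of 70 cells and a median of 0 or close to it in every group. The highest value was 513 CPM in 1 Sert_Pet1_dmDR cell at postnatal day 63, which had no Calb1 read. Crh_Pet1_rDR had 3 positive cells of 8, at 7.73, 21.8 and 158 CPM. Npy2r_Pet1_rDR had 1 cell at 64.7 CPM, which also had no Calb1 read and the lowest Necab2 of its group. Of the 12 cells with at least 10 reads of Nos1, however, 9 also had at least 10 reads of Calb1, against 9.09 expected. In P2ry1_Pet1_cDR 1 of 10 cells had Nos1, at 1.74 CPM, and in Sert_Pet1_cDR the highest of 3 positive cells had 3.89 CPM. No group was set apart from the others by Nos1.

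**Figure D4:**
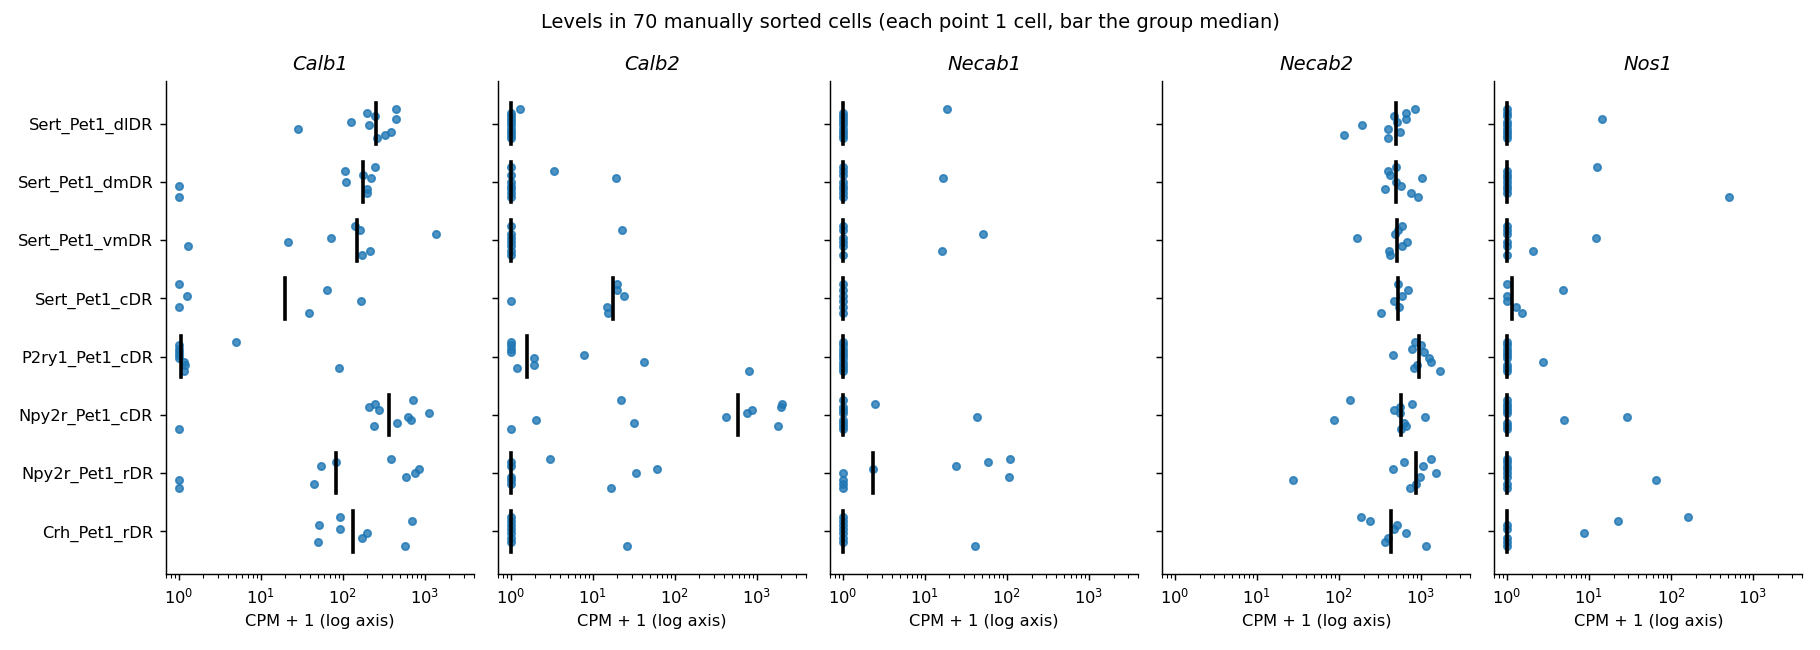
CPM + 1 (log axis) of each gene in the 70 manually sorted cells, in rows by group, with each point 1 cell and the bar the group median. Calb2 was high in Npy2r_Pet1_cDR (median 591 CPM), Calb1 was low in P2ry1_Pet1_cDR (median 0.0820 CPM), and Necab2 was found in all 70 cells.

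Joint detection in the manual cells, at 10 reads or more, rests on few cells. All 10 Necab1 cells also had Calb1, against 7.57 expected. Of the 24 Calb2 cells, 20 had Slc17a8 against 14.7 expected and 7 had Gad2 against 11.3 expected. Calb1 and Calb2 were found together in 17 cells against 18.2 expected, and Calb2 and Nos1 in 3 against 4.11 expected. Nos1 was found with Calb1 in 9 cells (9.09 expected), with Slc17a8 in 8 (7.37 expected) and with Gad2 in 5 (5.66 expected). These counts are over cells of groups that were sampled unequally.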

How the data were processed

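Droplet 3′ libraries were sequenced from sorted Pet1 neurons, and full-length libraries from cells picked by hand. For the 10X cells the authors mapped reads to mm10 with Cell Ranger 3.0.2, filtered genes and cells in R 3.5.3 (cells by genes detected, glial genes, low Fev, mitochondrial and ribosomal content and outlying totals) and deposited UMI counts. For the manual cells the authors mapped reads with STAR 2.5.4 and deposited counts of reads per gene without normalization. The submitters' processing notes give the tools and the build.

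The members, lists and the 500 CPM limit of Tph2 were chosen with earlier results of these data known. Clusters were rebuilt in Seurat 5.3.0 (R 4.3.3) from 2000 variable genes, all 5 members of which were removed, with components 1 to 5 and 8 to 50, 20 neighbours and resolution 0.9, and were numbered by marker genes. Levels are UMIs or reads of a gene in 1000000 (CPM), with exact Poisson, Clopper-Pearson or ratio intervals. Reads are not independent molecules in the manual libraries, which have no molecular identifiers. Genes past 2-fold were counted among those with at least 100 UMIs. Scrublet (scanpy 1.11.5, expected rate 5%, per barcode set) marked 14 cells, which were kept and left out as an alternative. Thinning drew 20000 UMIs per cell and left out 53 shallower cells. Coding sequences came from GENCODE annotation of GRCm38 and were aligned with Biopython 1.88. The text names the 5 members, Tph2, Gad1, Gad2 and Slc17a8, the 5 genes closest to each member by r, and the 3 highest and 3 lowest genes of each list between classes. Among the closest genes and the marker lists, 2 genes are not reported here. Combinations of genes, classes within clusters and marker lists of low-Tph2 cells were added after the data were seen. Computation used Python 3.11.15, numpy 2.4.6, scipy 1.17.1, pandas 2.3.3 and matplotlib 3.10.9, and the ratio was tested on simulated data.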

Additional observations from a re-analysis of the deposited data

Results flagged for a closer look

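In the manual groups of 6 to 10 cells, the highest or lowest cell stood far from the others (gap over range of log2(CPM + 1), Dixon's limit) in 21 of 38 gene and group combinations, where chance gives about 1 in 20. The limit assumes a smooth spread, and many of these groups hold cells at 0.

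For Nos1 the highest cell stood apart in Sert_Pet1_dmDR (513 CPM), Npy2r_Pet1_rDR (64.7 CPM), Npy2r_Pet1_cDR (27.7 CPM), Sert_Pet1_dlDR (13.6 CPM), Sert_Pet1_vmDR (11.2 CPM), Sert_Pet1_cDR (3.89 CPM) and P2ry1_Pet1_cDR (1.74 CPM). For Necab1 it did in Npy2r_Pet1_cDR (42.2 CPM), Crh_Pet1_rDR (39.7 CPM), Sert_Pet1_dlDR (17.9 CPM) and Sert_Pet1_dmDR (15.5 CPM). For Calb2 it did in Crh_Pet1_rDR (25.0 CPM), Sert_Pet1_vmDR (21.8 CPM), Sert_Pet1_dmDR (18.2 CPM) and Sert_Pet1_dlDR (0.308 CPM), and the lowest cell did in Sert_Pet1_cDR (0 CPM). For Calb1 the highest cell stood apart in P2ry1_Pet1_cDR (88.3 CPM), and the lowest in Npy2r_Pet1_cDR (0 CPM) and Sert_Pet1_dlDR (27.5 CPM). For Necab2 the lowest cell stood apart in Npy2r_Pet1_rDR (26.5 CPM) and Sert_Pet1_vmDR (164 CPM).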

How the results depend on the processing

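Most values held, and those that moved by more than their counting interval are given here as log2 ratios. For the leading cluster of each gene over all other cells, the reported values were 2.01 for Calb1, 3.47 for Calb2, 3.46 for Necab1, 1.14 for Necab2 and 3.23 for Nos1. At resolution 0.7 they were 1.39, 2.42, 3.20 and 1.30 for the first 4 genes, where cluster 14, which leads for Calb1 and Calb2, had joined other cells (245 in place of 102), and so had cluster 6, which leads for Necab1 and Necab2 (336 in place of 165). With components 1 to 50, Calb1 was 1.33 and Nos1 3.37. In both settings Calb1 was highest in another cluster, and at resolution 0.7 so was Calb2. In barcode set 1 alone, Calb2 was 3.61, Necab1 3.89, Necab2 1.08 and Nos1 3.05, and in set 2 alone Calb2 was 3.39, Necab1 3.28 and Necab2 1.20. Thinned to 20000 UMIs, Calb2 was 3.32, Necab1 3.30 and Nos1 3.54.

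For Slc17a8-only against Gad2-only cells, classing at 1 UMI turned Calb1 to 0.17 and Necab1 to 0.24, and gave 3.49 for Calb2, -0.67 for Necab2 and 1.44 for Nos1. At 10 UMIs the values were -0.45 for Calb1, 2.17 for Calb2, -0.83 for Necab1 and -0.68 for Necab2. Thinned, they were -0.34 for Calb1, 2.10 for Calb2, 0.034 for Necab1 (turned), -0.77 for Necab2 and 1.36 for Nos1. As a mean over cells of the level per cell, Calb1 turned to 0.030 and Necab1 to 0.25, Calb2 was 2.77 and Necab2 -0.79. In barcode set 1 alone, Calb2 was 4.18, Necab1 -0.048, Necab2 -0.77 and Nos1 0.68, which is under 2-fold. In set 2 alone, Calb2 was 2.74 and Nos1 1.44. Directions of Calb2, Necab2 and Nos1 held in all these alternatives.

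For low-Tph2 against other cells, a limit of 200 CPM gave -2.68 for Calb1, 0.95 for Calb2 and -2.43 for Necab2. A limit of 1000 CPM gave -0.039 for Calb1, 1.20 for Calb2, 1.77 for Necab1 and -1.21 for Necab2, so the lower Calb1 rests on the limit. Nos1 fell under 2-fold at both limits, with -0.86 and -0.89, and in barcode set 1 alone, with -0.79. In barcode set 1 alone, Calb1 was -1.37 and Necab2 -2.73, and in set 2 alone -2.15 and -1.66. As a mean per cell, Calb2 was 0.26 and Necab2 -2.29.

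For joint detection, the log2 of observed over expected at 1 UMI was 0.08 for Calb1 and Calb2, 0.10 for Calb1 and Necab1, 0.01 for Calb1 and Necab2, 0.05 for Calb1 and Nos1 and 0.10 for Calb2 and Nos1. At 3 UMIs these were 0.47, 0.60, 0.047, 0.34 and -0.48. Thinned, they were 0.29 for Calb1 and Calb2, 0.38 for Calb1 and Necab1, 0.19 for Calb1 and Nos1 and -0.32 for Calb2 and Nos1. In barcode set 1, Calb1 and Necab1 gave -0.068. The cause of these shifts was not tested.

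Leaving out cells called doublets in the class with both Gad2 and Slc17a8, chosen after seeing the data, moved none of the 5 genes beyond its interval. The values of the sorted groups kept within their spread under other scalings and at 10 reads. No paired analysis was possible because each manual sample is 1 cell, the labels name no animal, and no test between groups was made. No replicate was left out, since each group of cells is 1 sample. Depth limits the rarer genes most: 35.8% of positive cells for Calb2, 34.9% for Necab1 and 36.2% for Nos1 held a single UMI.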
